A study of Rattus norvegicus with 16 samples.

Results

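Small RNA reads from 6 whole-liver libraries of adult male rats were compared, 2 from a series of 6 tissues and 4 sequenced as further livers of the same strains. The 6 libraries are all the livers among the 16 libraries of the series. They were chosen by their labels alone: BN-Lx liver 1 and SHR liver 1 stand in the series beside brain, spleen, heart, testis and kidney of the same strain, while BN-Lx livers 2 and 3 and SHR livers 2 and 3 are labelled as replicates. BN-Lx is a Brown Norway inbred strain that the study names for its polydactyly-luxate syndrome. SHR is the spontaneously hypertensive rat, also inbred. The labels name no engineered allele and no treatment. In the study each liver came from its own rat, and 1 rat per strain gave all 6 tissues of the first set. The set a library belongs to, the rat, the library preparation, the sequencing run and the mapping therefore cannot be told apart. The study's methods also state that the liver library of the SHR rat had more PCR cycles than the other livers. By their wording this is the rat that gave all tissues, so SHR liver 1 differed from the rest in amplification as well, and the part of this in the results was not tested. The comparison asks how far livers of one strain and sex differ between the sets before any strain difference is read, so strain was a term in the main models.

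The hepatocyte marker mir-122 led every liver library. It held 34.4% of reads in BN-Lx liver 1 and 39.0% in SHR liver 1, against 49.7% and 46.2% in BN-Lx livers 2 and 3 and 46.0% and 48.7% in SHR livers 2 and 3, whereas in the other tissues it took at most 0.342%. All libraries thus carried the marker of their label, at a lower share in the six-tissue livers. Depth was also lower there, with 468081 and 501209 reads of at least 17 nt in BN-Lx liver 1 and SHR liver 1 against 1366454, 1166050, 3060051 and 3220475 in the further livers. The precision of a library share was within 0.272 percentage points (width of the 95% Wilson interval), although such intervals cover counting error only, since PCR copies are not independent molecules. In a multidimensional scaling of arm levels the first dimension held 51.0% of the variance and placed the six-tissue livers at 0.95 and 0.92 and the further livers between -0.55 and -0.28. The model p-values below set a difference between sets against the spread between rats and libraries, and do not give its cause. With 1 six-tissue liver per strain, spread within a strain was seen in the further livers only. The main models also assumed the same set difference in both strains.

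A microRNA precursor folds into a hairpin, from which the enzymes Drosha and Dicer cut a short duplex with one strand from the 5′ arm (5p) and one from the 3′ arm (3p). Usually one strand is loaded into an Argonaute protein and guides it to target messages through its seed, the bases next to the 5′ end, while the other strand is degraded. Cuts, trimming and added bases give several forms of one arm, called isomiRs: a changed 3′ end keeps the seed, and a changed 5′ start moves it. Whole liver is mostly hepatocyte RNA, with smaller parts from endothelium, macrophages, stellate cells, bile duct and blood.

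The mature sequences below belong to arms whose levels differed between the sets, or that share a seed with such an arm. They are printed from RefSeq on assembly GRCr8, 5′ to 3′, with the seed (bases 2 to 8) in capitals.
mir-122-5p: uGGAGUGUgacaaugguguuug
mir-26a-5p: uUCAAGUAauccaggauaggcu
mir-26b-5p: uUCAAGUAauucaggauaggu
let-7a-1-5p: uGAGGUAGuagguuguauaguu
let-7c-1-5p: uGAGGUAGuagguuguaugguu
let-7e-5p: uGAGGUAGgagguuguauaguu
mir-190-5p: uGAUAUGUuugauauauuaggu
hsa-mir-511-1-3p: aAUGUGUAgcaaaagacagga
mir-7a-1-3p: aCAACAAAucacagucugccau
mir-20a-5p: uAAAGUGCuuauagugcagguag
mir-19a-3p: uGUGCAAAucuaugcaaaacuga
mir-101a-3p: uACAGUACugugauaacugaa
mir-101b-3p: uACAGUACugugauagcugaa
mir-23a-3p: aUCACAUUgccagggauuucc
mir-23b-3p: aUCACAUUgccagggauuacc
mir-29c-3p: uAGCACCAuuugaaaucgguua
mir-24-1-3p: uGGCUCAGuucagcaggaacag
mir-199a-5p: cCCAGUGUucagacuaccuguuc
mir-331-3p: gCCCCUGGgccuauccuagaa
On GRCr8, mir-26a-5p is encoded at chr8:127633063-127633084 on the plus strand inside Ctdspl, and mir-26b-5p at chr9:83425723-83425743 on the plus strand inside Ctdsp1. The mir-190-5p sequence lies at chr8:76732228-76732249 on the minus strand inside Tln2, which encodes talin 2. Position chr17:82188001-82188021 of the plus strand, inside Mrc1, encodes hsa-mir-511-1-3p; Mrc1 is the macrophage mannose receptor. The mir-7a-1-3p sequence lies at chr17:6278751-6278772 on the plus strand inside Hnrnpk, and mir-122-5p lies at chr18:61028831-61028852 on the plus strand.

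Levels were compared for 301 arms that passed the filter on low counts. By edgeR's quasi-likelihood test with Benjamini-Hochberg adjustment, 76 arms (25.2%) differed, 23 higher in the six-tissue livers (7.64%) and 53 lower (17.6%), with a median log2 fold change of -0.11 over all arms. The livers of the sets did not overlap for 145 arms (48.2%). Levels are counts per 1000000 reads (CPM) scaled by TMM, a trimmed mean of ratios between libraries, and a fold change is six-tissue over further livers. The division into higher and lower depended on the scaling, with 34 higher and 42 lower by relative log expression (RLE), 49 and 58 by DESeq2, and 45 and 21 with total reads, where the median over all arms moved to 0.47. No called arm reversed its direction in any setting. Leaving out 1 library at a time gave 16 calls without BN-Lx liver 1 (14 of them among the 76), 22 without SHR liver 1 (18), 24 without SHR liver 2 (24), 33 without BN-Lx liver 2 (33), 43 without SHR liver 3 (41) and 47 without BN-Lx liver 3 (42). In all 20 settings 9 arms were called, each lower in the six-tissue livers: mir-26a-5p, mir-26b-5p, both let-7c 5p arms, mir-126-5p, mir-190-5p, hsa-mir-511-1-3p, mir-301a-3p and mir-7a-1-3p. Every other called arm lost its call, or could not be tested, in at least 1 setting.

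**Figure D1:**
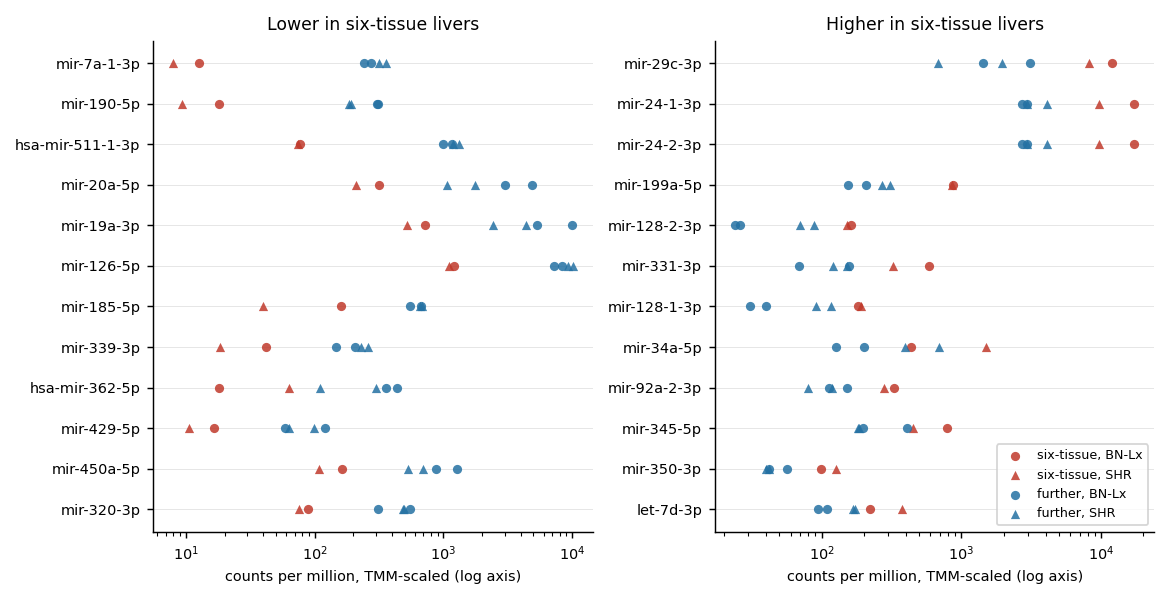
TMM-scaled CPM (log axis) of the 12 called arms with the largest change in each direction and a mean of at least 50 CPM, 1 point per library (red, six-tissue livers; blue, further livers; circles, BN-Lx; triangles, SHR). The 2 red points lie below all blue points for every arm on the left, from mir-7a-1-3p with 12.8 and 7.96 CPM to mir-320-3p, whereas on the right BN-Lx liver 1 lies among the further livers for mir-34a-5p.

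The arms that were lower in the six-tissue livers included the leading arm of the liver. The mir-122-5p level was 227426 CPM in BN-Lx liver 1 and 214402 CPM in SHR liver 1, against 544931, 427397, 468758 and 545171 CPM in BN-Lx livers 2 and 3 and SHR livers 2 and 3. Both six-tissue livers lay well under the lowest further liver, and the log2 fold change was -1.17 (SE 0.28, edgeR, adjusted p = 0.0301). Among the scalings and omissions, the call was lost with total reads (-0.55) and without BN-Lx liver 1 (-1.22), BN-Lx liver 2 (-1.09), SHR liver 2 (-1.14) or SHR liver 3 (-1.17). The opposite arm mir-122-3p did not pass the test, with 66609 and 44843 CPM against 33701 to 71885 CPM and a log2 fold change of 0.08. With TMM 17.6% of all arms were lower and 7.64% higher. Of the 8 tested arms of the hepatocyte list mir-122-5p was the 1 called with TMM. The count moved with the scaling, with 2 higher and 1 lower by RLE and by DESeq2 and 2 higher and none lower with total reads. The mir-192-5p arm of that list gave a log2 fold change of 0.22 and was not called.

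The arms of the mir-26 family, which share the seed UCAAGUA, fell together. For mir-26a-5p the levels were 8963 and 6898 CPM in BN-Lx liver 1 and SHR liver 1 and 30309, 25357, 29741 and 35709 CPM in the further livers. For mir-26b-5p they were 3079 and 2411 CPM against 10468, 9467, 11326 and 10477 CPM. Neither arm overlapped between the sets, and both had a log2 fold change of -1.93 (edgeR, adjusted p = 0.00903 and 0.00771).

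The largest decreases among called arms with a mean of at least 50 CPM belonged to arms hosted in protein-coding genes. The mir-7a-1-3p arm, the strand opposite to the mir-7 guide, had 12.8 and 7.96 CPM against 243, 276, 319 and 356 CPM (log2 fold change -4.84, SE 0.45, edgeR, adjusted p = 0.00223). The mir-190-5p arm had 18.3 and 9.29 CPM against 305, 313, 185 and 193 CPM (log2 fold change -4.20, SE 0.37, adjusted p = 0.00223 by edgeR). In reads these six-tissue values are 7 and 6 for mir-7a-1-3p and 10 and 7 for mir-190-5p, so their counting error is wide, while the further livers held at least 279 reads of either. The macrophage-hosted hsa-mir-511-1-3p stood at 76.7 and 74.3 CPM against 1168, 985, 1325 and 1181 CPM (log2 fold change -3.94, SE 0.31, edgeR, adjusted p = 0.00223). For each of the 3 arms the sets were separated by a wide gap.

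Both arms of mir-126, a microRNA of endothelial cells, were lower. The mir-126-5p level was 1219 CPM in BN-Lx liver 1 and 1105 CPM in SHR liver 1, against 7228, 8273, 10063 and 9329 CPM in the further livers, with a log2 fold change of -2.89 (SE 0.28, edgeR, adjusted p = 0.00235). The mir-126-3p level was 8101 and 5321 CPM against 21723, 19454, 16929 and 31108 CPM, with a log2 fold change of -1.74 (SE 0.38, edgeR, adjusted p = 0.024). Neither arm overlapped between the sets and both were called under every scaling, but the call of mir-126-3p was lost without BN-Lx liver 1 (-2.14), without SHR liver 1 (-1.55) and without BN-Lx liver 2 (-1.77). In whole tissue, fewer cells of a type and less RNA per cell cannot be told apart. Nor can either be told apart from the library preparation, the sequencing run or the mapping.

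Arms of the mir-200 family, which mark epithelium and in liver the bile duct, were mostly lower, with 5 of the 6 tested arms called (median log2 fold change -2.13). For this list and those below, the shares over all arms were 17.6% lower and 7.64% higher with TMM. The summed level of the list was 447 and 369 CPM in the six-tissue livers against 1292, 1598, 1286 and 986 CPM. Its arm mir-200a-3p had 235 and 224 CPM against 775, 909, 882 and 595 CPM (log2 fold change -1.78). With total reads as the scaling 2 of the 6 were called lower, with RLE 4 and with DESeq2 5. The mir-141-3p value of -3.91 rests on 1 read in each six-tissue liver. Among 8 tested leukocyte arms mir-142-3p was lower, at 84.0 and 51.7 CPM against 312, 360.2, 274 and 208 CPM, and the erythroid list of 3 tested arms held no call. The stellate and smooth muscle list moved in both directions, with mir-145-5p lower and 2 of its 6 arms higher. For mir-145-5p the levels were 35253 and 24816 CPM against 52281, 69474, 58474 and 56078 CPM. Leaving out any 1 liver ended the mir-145-5p call (log2 fold changes -1.19 to -0.89), as did total reads (-0.40) and the outlier-corrected mean as the scaling (-0.65), and the mir-142-3p call was lost without BN-Lx liver 1 (-2.21) or SHR liver 1 (-2.20).

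The let-7 family represses growth genes and is abundant in differentiated tissue. Of its 17 tested arms 8 were lower (17.6% of all arms) and 1 was higher (7.64% of all arms), with a median log2 fold change of -1.15. Copies of a hairpin give the same mature arm, so the lower arms are 5 of 8 distinct sequences with the let-7 seed GAGGUAG. For let-7c-1-5p the levels were 542 and 401 CPM against 2893, 2307, 1726 and 1791 CPM (log2 fold change -2.19, SE 0.27, edgeR, adjusted p = 0.00563), and for let-7a-1-5p they were 2532 and 2064 CPM against 8502, 6093, 5452 and 5197 CPM (log2 fold change -1.45). The six-tissue livers were the lowest for both. The higher arm was let-7d-3p, a 3p arm with another seed, at 221 and 376 CPM against 94.2, 109, 168 and 173 CPM, and it was not called when any 1 liver was left out (log2 fold changes 0.92 to 1.19). The call of let-7a-1-5p was lost without BN-Lx liver 1 (-1.35), SHR liver 1 (-1.73) or SHR liver 2 (-1.37). The family count rests on the scaling, with 2 arms lower and 4 higher with total reads, and 8 lower and 4 higher by RLE. Several let-7 arms differ by 1 base from each other; reads had been matched without mismatch, and a read that matched several hairpins was divided evenly over them.

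The mir-17-92 and mir-106b-25 clusters, whose products promote proliferation, had 6 arms lower and 2 higher among 20 tested (median -0.74), and 3 to 7 lower under the other scalings. Of all arms 17.6% were lower and 7.64% higher with TMM. The mir-20a-5p level was 318 and 211 CPM against 3023, 4834, 1074 and 1764 CPM (log2 fold change -3.17, SE 0.44, edgeR, adjusted p = 0.00771). For mir-19a-3p it was 719 and 519 CPM against 5294, 9926, 4406 and 2434 CPM (log2 fold change -3.05). Within the further livers BN-Lx stood above SHR for mir-20a-5p, and the six-tissue livers stood under both strains. Both calls were lost without BN-Lx liver 1, where the log2 fold changes were -2.72 for either arm, and that of mir-19a-3p also without SHR liver 1 (-3.60) or SHR liver 2 (-2.80). The list also holds the related copies on chromosome X, of which mir-92a-2-3p moved the other way, with 329 and 279 CPM against 153, 113, 80.6 and 118 CPM and a log2 fold change of 1.40 that was not called when any 1 liver was left out (1.10 to 1.52). The rise did not follow the chromosome. The chromosome X arms mir-20b-5p and mir-19b-2-3p lay at -0.91 and -0.71, neither called. On chromosome 15, mir-92a-1-3p, with the same mature sequence as mir-92a-2-3p, lay at 0.93 and was not called, and mir-20a-3p was called at 1.56.

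Higher arms were fewer. The mir-29c-3p level, from a family that represses collagen genes, was 11969 and 8199.6 CPM against 3081, 1434, 1962 and 678 CPM (log2 fold change 2.52, SE 0.48, edgeR, adjusted p = 0.0166). Its relative mir-29a-3p varied widely among the further livers, at 10106, 1049, 4118 and 499 CPM beside 34461 and 25723 CPM, and was not called (edgeR, adjusted p = 0.0703). The reads of the mir-24-3p arm were divided evenly over both of its hairpins. Counted per hairpin, the arm had 17243 and 9675 CPM against 2697, 2950.3, 2954 and 4092 CPM (log2 fold change 2.07, SE 0.33, edgeR, adjusted p = 0.00903). The six-tissue livers held the highest values of these arms without overlap. The mir-29c-3p call was lost without BN-Lx liver 1 (2.63), SHR liver 1 (2.20) or SHR liver 2 (3.01), and the mir-24-3p call without BN-Lx liver 1 (1.48).

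The stress-induced mir-34a-5p, a target of p53, was called with overlapping groups. It had 433 CPM in BN-Lx liver 1 against 199.8 and 127 CPM in BN-Lx livers 2 and 3, and 1503 CPM in SHR liver 1 against 395 and 696 CPM in SHR livers 2 and 3. Within either strain the six-tissue liver was the highest, with log2 ratios of 1.40 in BN-Lx and 1.46 in SHR. Leaving out any 1 liver ended the call (log2 fold changes 1.20 to 1.61). In the liver stress and metabolism list, mir-34a-5p was the 1 higher and mir-33-3p the 1 lower arm among 13 tested; by RLE 3 were higher and none lower, and by DESeq2 3 higher and 2 lower. Of the remaining families, 1 of 10 mir-30 arms, 1 of 8 mir-29 arms and 1 of 8 mir-15 and mir-16 arms were higher and none lower, while 2 of 10 arms of the mir-23, mir-24 and mir-27 clusters were higher and 2 lower, beside 7.64% higher and 17.6% lower over all arms. With total reads the mir-15 and mir-16 count became 3 higher, and that of the mir-23, mir-24 and mir-27 clusters 3 higher and none lower. The mir-331-3p arm had 589 and 326 CPM against 156, 69.3, 153 and 120.4 CPM (log2 fold change 1.85), a call kept in the absence of BN-Lx liver 3 but of none of the others (1.27 to 2.18).

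Arms known from brain were at low levels in every liver. Yet 5 of the 7 tested were higher in the six-tissue livers, beside 7.64% of all arms with TMM. None of the 7 was lower, and these counts held under each scaling. The calls come from 2 microRNAs: the same reads are divided over the 3 mir-124 hairpins, and the mir-128 hairpins give the same mature sequence. The arm mir-138-1-5p of the list did not rise, with a log2 fold change of -0.19, and was not called. The summed level of the list was 600.4 CPM in BN-Lx liver 1 and 499 CPM in SHR liver 1, against 232, 253, 319.7 and 299 CPM in the further livers and 121295 and 157948 CPM in the brain libraries of BN-Lx and SHR, which were not TMM-scaled. Of the 19 listed arms with a liver read, 7 passed the filter on low counts, which an arm can pass through the livers where it is higher, so the count is a description. For mir-129-2-3p, a brain microRNA outside the list, 24 reads came from BN-Lx liver 1 and 13 from SHR liver 1. No further liver gave over 1.5 reads. This arm was named after its values were seen, since it had the largest log2 fold change of the called arms (5.40). The arm mir-218-2-5p, also known from brain and outside the list, lay at 0.42 and was not called. The mir-124-1-3p arm, counted on 1 of the 3 hairpins, had 16.4 and 17.7 CPM against 2.33, 2.57, 0.768 and 0.131 CPM. Its call was lost when any 1 of the 6 livers was left out (log2 fold changes 2.43 to 5.23). The mir-128-1-3p arm, more abundant than mir-124-1-3p, had 182 and 191 CPM against 31.0, 39.8, 116 and 91.8 CPM, and was likewise not called without any 1 liver (0.89 to 2.16). Whether brain RNA of the same set reached the liver libraries was not tested. A muscle microRNA, mir-1-3p, set other libraries apart. It counted 614 reads in BN-Lx liver 3, 1598 reads in SHR liver 3 and 8 to 27 reads elsewhere. Of the 6 tested arms of the heart and muscle list 2 had a positive log2 fold change, mir-133a-3p (2.33) and mir-133b-3p (1.90), neither called. With TMM the heart and muscle list held 1 lower arm among 6 tested, beside 17.6% of all arms. By RLE, with total reads and with the outlier-corrected mean it held none. The lists for testis, kidney and pancreas held no called arm among 3, 4 and 1 with TMM. With total reads and by DESeq2 1 testis arm was higher.

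The base composition of the mature sequences, which no step of the choice had used, varied with the level difference. RefSeq sequences matched 259 of the 301 tested arms (86.0%), 238 of them distinct. Spearman's rho with the log2 fold change over these 238 sequences was 0.45 for the percentage of cytosine, -0.27 for guanine, -0.17 for adenine and -0.03 for uracil, and -0.05 for length. Of 28 sequences with at most 10% cytosine 14 were lower and none higher, whereas of 56 sequences with over 30% cytosine 7 were higher and 4 lower. The let-7 sequences printed above hold no cytosine. The points share the 6 libraries and families share sequence, so the coefficients are given as a description.

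**Figure D2:**
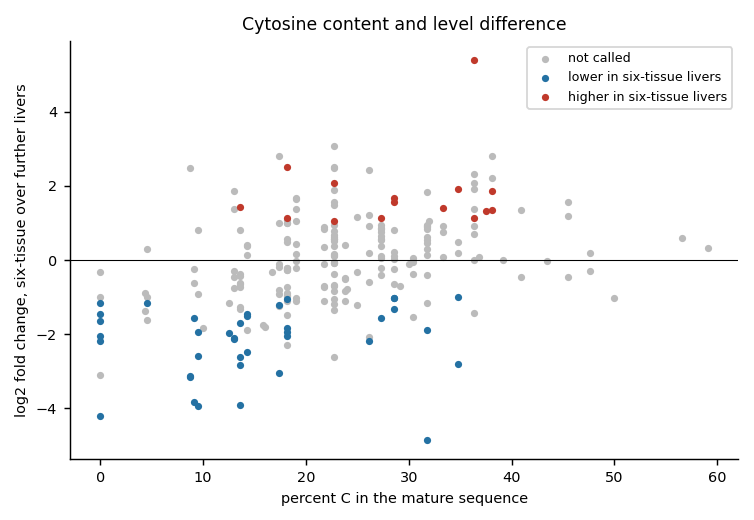
Log2 fold change (six-tissue over further livers) against the percentage of cytosine in the mature sequence, 1 point per distinct RefSeq sequence, coloured by the call of the level test. Sequences with 10% cytosine or less have a median of -1.52 and those over 30% a median of 0.57, with much scatter in every class.

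Reads were shorter in the six-tissue livers. The mean read length was 21.66 nt in BN-Lx liver 1 and 21.73 nt in SHR liver 1, against 21.89 and 21.95 nt in BN-Lx livers 2 and 3 and 21.82 and 21.81 nt in SHR livers 2 and 3. Reads of 17 to 20 nt made up 13.1% and 11.7% against 7.21%, 5.39%, 9.07% and 8.76%. The sets did not overlap in either value (exact permutation test within strain, two-sided, p = 0.111, the smallest the 9 arrangements allow). At the other end, reads of 25 nt or more numbered 1 and 0 in the six-tissue livers and 3485, 3453, 5340 and 5206 in the further livers, and the other 10 libraries of the six-tissue set held 0 to 4. Reads of 15 and 16 nt were listed only for the further livers and were left out of all values here. The range of lengths that a table lists thus differed between the sets at both ends. Over reads of 17 to 24 nt the mean length still differed by -0.164 nt, beside -0.171 nt over all reads of at least 17 nt. In that range 39 arms were called for length, all of them among the 47 called below.

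**Figure D3:**
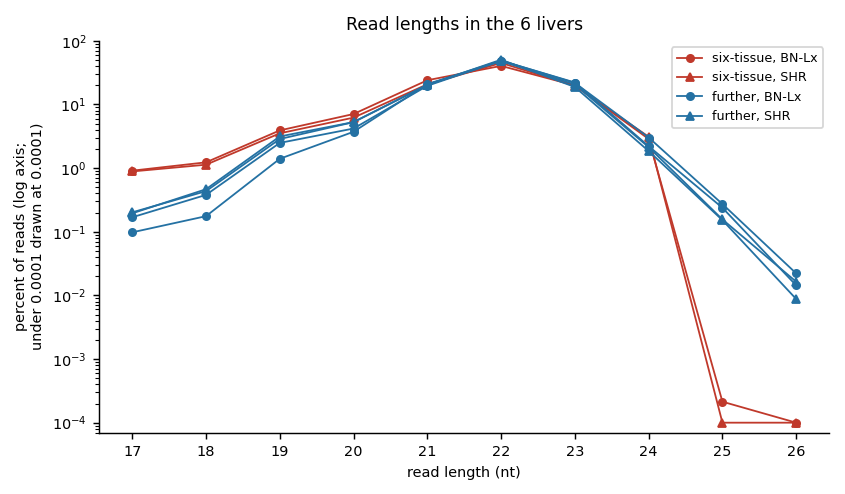
Share of reads at each length from 17 to 26 nt in the 6 livers (log axis, values under 0.0001% drawn at 0.0001%; red, six-tissue livers; blue, further livers; circles, BN-Lx; triangles, SHR). The six-tissue livers lie above the further livers at 17 to 20 nt and fall to 1 and 0 reads from 25 nt on.

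The shortening was seen arm by arm. Among 127 arms with at least 50 reads in each liver, limma with Benjamini-Hochberg adjustment called a different mean read length for 47 (37.0%), of which 45 were shorter (35.4%) and 2 longer (1.57%) in the six-tissue livers; 79 did not overlap between the sets (62.2%). The mean 3′ end differed for 34 arms (26.8%), earlier for 32 (25.2%) and later for 2 (1.57%), with a median difference of -0.13 nt over all arms and no overlap for 77 (60.6%). The mean 5′ start differed for 38 arms (29.9%), later for 35 (27.6%) and earlier for 3 (2.36%), and did not overlap for 76 (59.8%). These shifts were small for most arms, with a median of 0.012 nt over all arms and a median size of 0.022 nt over the called ones. Of the 34 arms with a shifted 3′ end 33 also changed in length (97.1% of the former and 70.2% of the 47), while 11 (32.4%) were called in level, beside 45 of all 127 arms. The numbers moved with single libraries: leaving out SHR liver 3 gave 3 calls for the 3′ end (3 of them among the 34), SHR liver 2 gave 4 (4), BN-Lx liver 1 gave 11 (7) and BN-Lx liver 3 gave 19 (18). For the 5′ start the count was 17 without SHR liver 2, 20 without BN-Lx liver 2 and 21 without SHR liver 3. For length it was 5 without SHR liver 2, 13 without BN-Lx liver 1, 25 without SHR liver 3, 26 without BN-Lx liver 3 and 29 without BN-Lx liver 2. Only mir-26a-5p was called in all 3 measures in each of the 13 settings.

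The forms of mir-26a-5p show the shift. Its annotated 22 nt form and the shorter forms are printed as read, with the bases that vary at the 3′ end in capitals.
mir-26a-5p, 22 nt: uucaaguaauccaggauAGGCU
mir-26a-5p, 21 nt: uucaaguaauccaggauAGGC
mir-26a-5p, 19 nt: uucaaguaauccaggauAG
mir-26a-5p, 17 nt: uucaaguaauccaggau
The 22 nt form made up 50.7% of the reads of the arm in BN-Lx liver 1 and 45.3% in SHR liver 1, against 81.6%, 91.2%, 88.8% and 84.8% in the further livers. Loss of the last base gave 25.7% and 28.7% against 3.76% to 10.9%, and the 19 nt form gave 16% and 18.3% against 3.18% to 5.83%. The 17 nt form, which ends before all the capitals, held 3.60% and 3.56% against 0.1% to 0.24%. Every shorter form printed was thus more frequent in both six-tissue livers than in any further liver. The mean 3′ end was 0.79 nt earlier (SE 0.06, limma, adjusted p = 0.00495).

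The mir-22-3p arm ended earlier in the same way.
mir-22-3p, 22 nt: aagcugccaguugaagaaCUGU
mir-22-3p, 19 nt: aagcugccaguugaagaaC
mir-22-3p, 18 nt: aagcugccaguugaagaa
The 22 nt form held 39.0% and 39.8% in the six-tissue livers against 77.1%, 78.1%, 62.2% and 65.2% in the further livers. The 18 nt form held 20.1% and 19.9% against 5.34% to 13.4%. The mean 3′ end fell at hairpin positions 76.12 and 76.16 against 77.35, 77.46, 76.84 and 76.97, a difference of -1.02 nt (SE 0.14, limma, adjusted p = 0.0191). Without SHR liver 3 the difference was -1.03 nt and no longer called.

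For mir-301a-3p, the longest form rather than the shorter ones carried the difference.
mir-301a-3p, 23 nt: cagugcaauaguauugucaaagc
mir-301a-3p, 25 nt: cagugcaauaguauugucaaagcAU
The 25 nt form held 34.9%, 35.3%, 27.8% and 32.9% of reads in the further livers and none of 376 reads in BN-Lx liver 1 or of 349 reads in SHR liver 1, which allows a share of up to 0.798% and 0.860%. Since the tables of the six-tissue livers hold 1 read over 24 nt in all, the form falls outside their range of lengths. The 3′ end difference was -0.70 nt with all reads and 0.01 nt with reads of 17 to 24 nt, so it is lost over the range both sets share. The 3p name of mir-182-3p is the one used in the study, and the read position on its hairpin did not settle the arm. The name is kept here as a label and does not state the arm. For mir-182-3p, whose 25 nt form was also absent from the six-tissue livers, the difference of -1.33 nt became -0.61 nt over that range and was not called. Leaving out BN-Lx liver 1 brought it to -0.76 nt, and the call was lost on leaving out any liver other than SHR liver 1.

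A later 3′ end was called for mir-146a-5p and mir-223-3p, both from leukocytes.
mir-146a-5p, 23 nt: ugagaacugaauuccauggguua
mir-146a-5p, 24 nt: ugagaacugaauuccauggguuaU
The form with the added U of the hairpin held 48.8% and 40.6% in the six-tissue livers against 16.1%, 14.3%, 20.03% and 19.3% in the further livers, and the 23 nt form 26.95% and 36.6% against 44.7% to 50.9%. The order of the forms was thus reversed between the sets, and the mean 3′ end lay 0.44 nt later. Without BN-Lx liver 1 the difference was 0.38 nt and without SHR liver 2 it was 0.42 nt, and neither was called. For mir-223-3p the difference was 0.24 nt.

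**Figure D4:**
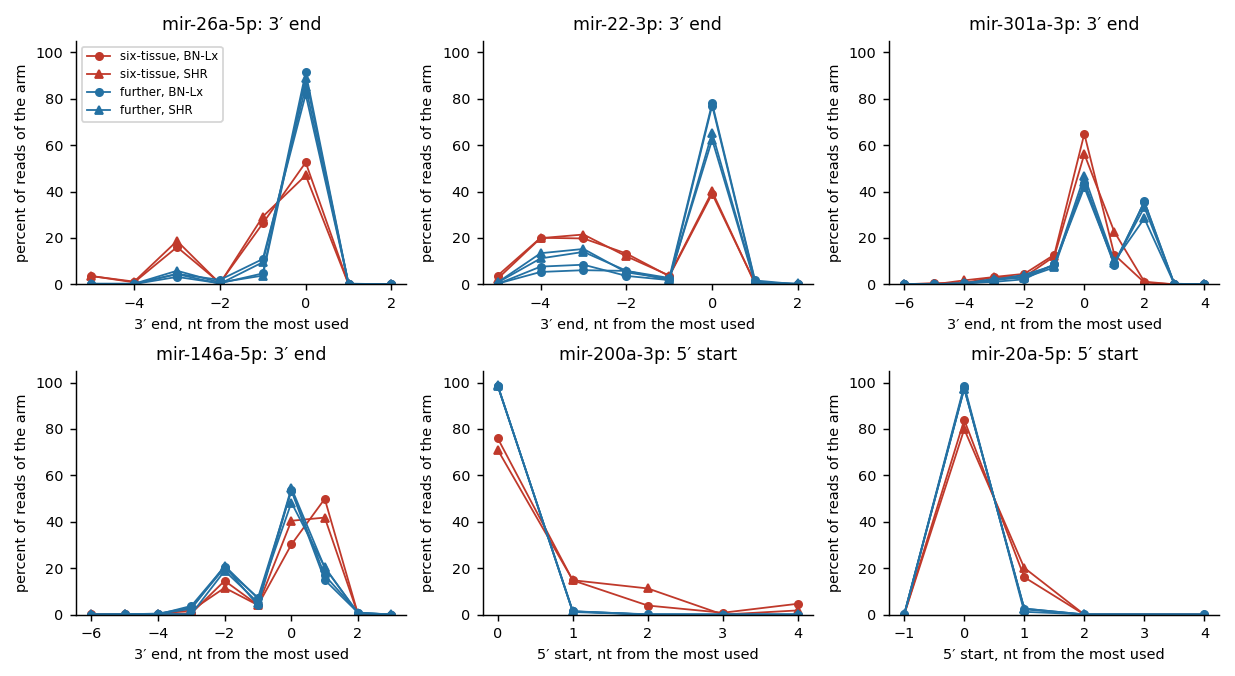
Percent of the reads of an arm ending (first 4 panels) or starting (last 2) at each position in nt from the most used position, 1 line per liver (red, six-tissue livers; blue, further livers; circles, BN-Lx; triangles, SHR). At the most used 3′ end of mir-26a-5p lie 52.6% and 47.0% of reads in the six-tissue livers and 81.9% to 91.4% in the further livers, mir-22-3p shows the same drop, mir-301a-3p has about 1% of reads at the position 2 nt later against at least 27.8% in the further livers, mir-146a-5p moves 1 nt later, and the 5′ starts of mir-200a-3p and mir-20a-5p spread downstream.

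A later 5′ start moves the seed, and it was largest for mir-200a-3p. The mir-200a-3p forms are printed with the bases at the variable start in capitals.
mir-200a-3p, 22 nt: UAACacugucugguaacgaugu
mir-200a-3p, 21 nt: AACacugucugguaacgaugu
mir-200a-3p, 20 nt: ACacugucugguaacgaugu
Reads starting at the most used base made up 76.0% in BN-Lx liver 1 and 71.0% in SHR liver 1, against 98.5% to 98.9% in the further livers. The 21 nt form held 10.1% and 7.10% against 0.45% to 0.53%, and the 20 nt form 3.10% and 11.2% against 0% to 0.11%. Both six-tissue livers had many more reads with the seed moved by 1 or more bases, and the mean start was 0.45 nt later (SE 0.02, limma, adjusted p = 0.0025). For mir-20a-5p the share at the most used start was 83.9% and 79.9% against 97.3% to 98.7%, a mean start 0.16 nt later. For mir-101b-3p it was 0.36 nt later. The arms with an earlier start were mir-505-3p (-0.35 nt), mir-203-3p (-0.07 nt) and mir-192-5p (-0.07 nt). Every setting that could be applied kept the calls of mir-200a-3p, mir-101b-3p, mir-20a-5p and mir-505-3p.

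The other tissues of the first set had ends nearer to the six-tissue livers than to the further livers for most arms. This held for 28 of the 32 called arms with enough reads in another tissue for the 3′ end, beside 95 of 124 arms tested. For the 5′ start it held for 30 of 38 called arms beside 85 of 124, and for length for 40 of 45 called arms beside 102 of 124. The comparison is a description, since tissue and set differ together.

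The balance of the arms also differed. In BN-Lx liver 1 and SHR liver 1 68.2% and 71.9% of all reads lay on 5p arms, against 80.9%, 79.2%, 78.7% and 79.8% in the further livers, without overlap (exact permutation test within strain, p = 0.111, the smallest possible). Leaving out mir-122 brought the difference of the set means from -9.60 to -6.02 percentage points. Among 96 hairpins with both arms read, limma on the log2 ratio of 5p to 3p reads called 19 (19.8%), 8 towards 5p (8.33%) and 11 towards 3p (11.5%), and the sets did not overlap for 53 (55.2%). No hairpin was called in all 15 settings. Without BN-Lx liver 2 and without SHR liver 1 no hairpin was called by limma (35 and 26 at an unadjusted p under 0.05), without BN-Lx liver 1 the count was 1, without SHR liver 2 it was 9 and without SHR liver 3 it was 29. With edgeR's test of differential use of arms in all livers the count was 35.

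The hairpins that moved towards 5p included those of the lower 3p arms named above. In hsa-mir-511-1 the 5p arm took 10.6% of reads in BN-Lx liver 1 and 16.4% in SHR liver 1, against 0%, 0.604%, 0.0579% and 0.298% in the further livers; 0 of 1338 reads in BN-Lx liver 2 allows up to 0.224%. The 5p reads themselves were few, 5 and 11 against 0, 7, 2 and 9, and the 5p arm was not called in level (log2 ratio difference 6.72, SE 1.26, limma, adjusted p = 0.0271). In mir-7a-1 the 5p share was 89.8% and 93.2% against 30.6%, 49.3%, 34.4% and 43.9% (log2 ratio difference 3.99, SE 0.58, limma, adjusted p = 0.0217), and in the other tissues it ran from 5.88% to 57.0%. The six-tissue livers stood above every other library for mir-7a-1. Its 5p arm has the same mature sequence as that of mir-7a-2, so the 5p reads are not those of mir-7a-1 alone. The 3p reads in the six-tissue livers were few, as given above. The 5p share of mir-497 was 99.2% and 95.9% against 77.5% to 85.8%, and other tissues gave 93.8% to 99.0%.

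For mir-199a, a microRNA of stellate cells and fibroblasts, the six-tissue livers also differed from each other. The 5p share was 37.5% in BN-Lx liver 1 and 93.3% in SHR liver 1, against 7.48%, 6.81%, 12.4% and 10.99% in the further livers (log2 ratio difference 4.84, SE 0.90, limma, adjusted p = 0.0271). The mir-199a-5p level was 867 and 856 CPM against 155, 208, 308 and 273 CPM, while mir-199a-3p was 1444 CPM in BN-Lx liver 1 but 61.0 CPM in SHR liver 1 beside 1922 to 2845 CPM. The mir-199a-5p level was called except without BN-Lx liver 1 (1.57). Without SHR liver 1 the log2 ratio difference was 2.96 and not called, and without BN-Lx liver 2 it was 5.14 and not called.

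Towards 3p, mir-20a changed with both arms called in level. Its 5p share was 86.6% and 87.4% against 99.5%, 99.6%, 98.9% and 99.5% (log2 ratio difference -4.73, SE 0.57, limma, adjusted p = 0.0161), and other tissues of the set gave 73.5% to 91.1%. In mir-872 the 5p share was 36.7% and 38.8% against 74.7%, 72.8%, 69.4% and 68.1%, so that the leading arm changed from 5p to 3p, and other tissues gave 21.1% to 40.8%. In mir-423 it was 15.2% and 18.6% against 45.3%, 50.4%, 46.0% and 39.7%, and in mir-455 2.58% and 7.87% against 23.4%, 27.5%, 22.7% and 22%. For these hairpins no further liver reached the range of the six-tissue livers. Of the 19 called hairpins 17 had an arm called in level, beside 43 of all 96 tested (44.8%), a count that is not independent since both tests use the same reads, and for 16 of the 19 the other tissues were nearer to the six-tissue livers, beside 66 of 96 tested. The smallest denominators limit some shares: for mir-93 in BN-Lx liver 1, 12 of 20 reads on 5p give a 95% Wilson interval 39.5 percentage points wide.

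**Figure D5:**
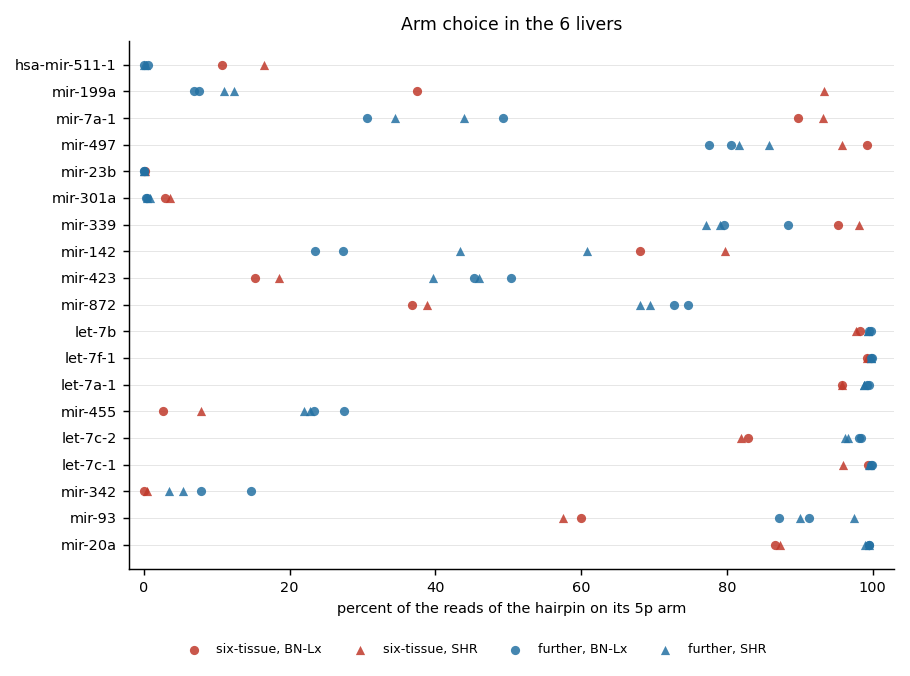
Percent of the reads of a hairpin on its 5p arm for the 19 hairpins called in the arm choice test, 1 point per library (red, six-tissue livers; blue, further livers; circles, BN-Lx; triangles, SHR). The red points lie above the blue ones for 8 hairpins and below them for 11, and the red points of mir-199a stand far apart at 37.5% and 93.3%.

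The difference between the sets was not shown to depend on the strain. The edgeR quasi-likelihood test of the strain by set interaction called 0 of 301 arms (0.0%), with 30 arms at an unadjusted p under 0.05, and the smallest adjusted p was 0.199, for mir-199a-3p. No arm was called without the filter on low counts or with RLE scaling either. With 1 six-tissue liver per strain this test has little power, and it does not show that the strains moved alike.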

How the data were processed

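Reads of small RNA from 16 rat libraries were size-selected on gels, ligated with the Ambion small RNA kit and sequenced on a SOLiD instrument by the authors, who trimmed linkers, mapped reads without mismatch to hairpins (genome RGSC 3.4, miRBase 12) and divided a read over the hairpins it matched. The deposited values are thus estimated counts per hairpin position, not normalized, and were rounded for count tests. The tables of the further livers list reads from 15 nt and the six-tissue tables from 17 nt.

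Reads of at least 17 nt were summed per hairpin and arm over 392 hairpins (712 arms). Arms follow the 5p or 3p side of the hairpin by read position; 6 of the 301 tested arms, on hairpins read on 1 side only, take the arm name used in the study. Levels were tested with edgeR 4.0.16 (quasi-likelihood, TMM, filterByExpr, strain as a term), mean ends and lengths with limma 3.58.1 (at least 50 reads in each liver) and arm choice with limma on log2 ratios with 0.5 reads added (at least 20 reads in each liver), all two-sided in R 4.3.3 with Benjamini-Hochberg adjustment at 0.05. Named arms are the 12 called arms of largest change in each direction with a mean of at least 50 CPM, the 8 largest shifts, list members, and some named after their values were seen. Library values were compared by exact permutation within strain. The number of reads, 468081 to 3220475 per liver, sets the counting error. On simulated data the level test recovered 9.80%, 81.1% and 97.4% of arms changed 2, 4 and 8-fold, with no wrong sign. It also called 1.09%, 1.61% and 3.59% of the unchanged arms. The simulated counts were set to vary less between libraries than the livers did, so recovery in the livers may be lower. Members and lists were chosen with earlier results of these data known. Scalings, filters, thinning, read-length ranges, DESeq2 1.42.0 and omission of each liver were alternatives.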

Additional observations from a re-analysis of the deposited data

Results flagged for a closer look

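Within the 4 further livers, 5 of 77 groups of values held 1 library far from the others, meaning that its gap to the nearest value took a share of the range over Dixon's 95% limit; chance gives about 1 in 20. For level, BN-Lx liver 2 stood apart with 405 CPM of mir-345-5p and 56.7 CPM of mir-350-3p, the highest of the further livers in both, and still under both six-tissue livers. The mean 5′ start of mir-18a-5p was at hairpin position 17.01 in SHR liver 3, and that of mir-203-3p at 52.16 in BN-Lx liver 2. The 5p share of mir-20a was 98.9% in SHR liver 2. Outside the values compared, reads of 15 and 16 nt were listed for the further livers alone, 3086 and 1557 in BN-Lx livers 2 and 3 and 7989 and 8986 in SHR livers 2 and 3.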

How the results depend on the processing

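Leaving out 1 liver at a time gave 16 to 47 called arms for level, 3 to 40 for the 3′ end, 17 to 47 for the 5′ start, 5 to 45 for length and 0 to 29 called hairpins for arm choice; where a set was left with 1 library, that library was assumed to vary like the others. Other level settings gave 66 to 107 calls. Length with 500 reads in each liver gave 30. Arm choice gave 10 calls thinned to the shallowest liver, 32 with 5 reads added and 35 with edgeR's test of arm use. Without mir-122 the 5p share differed by -6.02 percentage points, and with arms weighted equally the mean length differed by -0.288 nt. Over reads of 17 to 24 nt, a range chosen after seeing the data, mir-301a-3p moved to 0.0142 nt (3′ end) and 0.0154 nt (length). With all lengths, 15 and 16 nt included, mir-92a-2-3p turned to 0.57 nt (3′ end) and 0.53 nt (length), and the 5′ start of mir-195-5p to -0.0068 nt; in this setting the further tables alone gain reads. Labels share replicate numbers 2 and 3 between the strains of the further livers, whose differences between the numbers correlated at 0.287 across 301 arms; replicates 2 lay at -0.44 and -0.45 and replicates 3 at 0.62 and 0.31 on the second scaling dimension. The labels name no shared batch, and 2 pairs are too few to tell whether the numbers mark one. With a replicate block the calls were 74 for level, 13 for the 3′ end, 19 for the 5′ start, 24 for length and 14 for arm choice, and mir-122-5p and mir-145-5p (level) and mir-182-3p (3′ end) were not called. The cause of these changes was not tested. Reads of the six-tissue livers limit what low arms can show.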
